A study of Mus musculus with 26 samples.

Results

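The Id genes and the genes of bone morphogenetic protein (BMP) signalling were followed in RNA sequencing of mouse glioma cells that had lost parts of the Notch pathway. The set holds 10 genes, Id1, Id2, Id3, Id4, Bmp2, Bmp4, Bmp7, Bmpr1a, Bmpr1b and Smad6, found by matching their symbols to the Entrez identifiers of the 24454 genes counted. All 10 were matched, and 9 passed the filter on low counts that left 15617 genes for testing. Smad6 did not pass and is given as counts.

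All 26 libraries came from gliomas that expressed PDGF and lacked Trp53, the gene of the p53 tumour suppressor, so the controls carried both alterations too. Beyond these, 6 libraries were control, 6 were Notch1-/-, 5 were Notch2-/-, 5 were Notch1-/-Notch2-/- and 4 were Rbpj-/-. Early tumours were micro-dissected, and cells bearing GFP from the Rosa-CAG::GFP reporter, which Cre switches on, were sorted by FACS. The material is thus a sorted cell mixture, in which fewer cells of a type and less RNA per cell cannot be told apart. The labels do not say whether replicate libraries stem from different animals. The p-values below therefore speak of the spread among these libraries, which may be technical.

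BMPs are secreted ligands of the TGF-beta family. They bind pairs of type I and type II serine/threonine kinase receptors, which phosphorylate SMAD1, SMAD5 and SMAD9; these join SMAD4 and enter the nucleus, where the Id genes and the inhibitory Smad6 and Smad7 are among the best known targets. Id proteins have a helix-loop-helix but no DNA-binding region, so they capture E proteins (Tcf3, Tcf4, Tcf12) and keep proneural and oligodendrocyte factors from binding DNA. In the brain, BMP signalling favours astrocyte fates and restrains oligodendrocyte formation. Notch receptors act through RBPJ, the DNA-binding partner of the cleaved Notch intracellular domain, which switches on Hes genes.

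Total counts ran from 30868828 to 48103535 per library, and all 56 pairs of libraries of the same genotype differed by more than counting noise. The targeted genes bore out their labels only in part. Levels are given as CPM, counts scaled to a common library total. Notch2 stood at 6.14 to 8.58 CPM in Notch2-/- libraries against 9.42 to 16.4 CPM in control, but at 9.43 to 12.9 CPM in Notch1-/-Notch2-/-. Rbpj stood at 20.4 to 52.0 CPM in Rbpj-/- against 52.9 to 68.0 CPM in control. Notch1 was not lower in libraries labelled Notch1-/- (88.2 to 214 CPM) than in control (71.2 to 148 CPM); counts over a whole gene need not fall when part of it is deleted, and which part was deleted is not given in the sources used here. Wherever a genotype is named here, the libraries so labelled are meant. Markers of oligodendrocyte precursors, the cell type these gliomas resemble, summed to between 10011 and 22441 CPM over 12 genes in every genotype, with none at 0. In 3 libraries (control replicate 6, Notch2-/- replicates 3 and 4) both Xist, 71.3 to 1918 CPM, and the Y-linked Ddx3y, 45.9 to 74.1 CPM, were present, as in a mixture of sexes. Calls that are lost without these libraries are given as such beside the result. Comparisons with control share the same 6 control libraries and are therefore not independent of one another.

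The sequences just before the start sites of Id2, Id3 and Id4 are shown because Id4 differed between genotypes. For Id2 and Id3 no difference was called by edgeR's test with all libraries, which is described below. Each run holds the 250 bases before the start, 5′ to 3′ on the gene's own strand, from RefSeq on GRCm38.p6. Capitals mark TTCCCA, the reverse complement of TGGGAA, the core of the RBPJ motif, and GGCGCC, the GC-rich element that BMP-activated SMADs are known to bind. Id2 is at chr12:25096093-25096342 (minus strand), Id3 at chr4:136143572-136143821 (plus strand) and Id4 at chr13:48260866-48261115 (plus strand).
Id2: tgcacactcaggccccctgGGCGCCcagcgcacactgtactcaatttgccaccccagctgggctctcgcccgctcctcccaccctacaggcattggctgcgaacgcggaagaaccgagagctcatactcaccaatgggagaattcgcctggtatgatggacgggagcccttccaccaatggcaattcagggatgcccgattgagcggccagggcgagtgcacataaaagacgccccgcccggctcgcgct
Id3: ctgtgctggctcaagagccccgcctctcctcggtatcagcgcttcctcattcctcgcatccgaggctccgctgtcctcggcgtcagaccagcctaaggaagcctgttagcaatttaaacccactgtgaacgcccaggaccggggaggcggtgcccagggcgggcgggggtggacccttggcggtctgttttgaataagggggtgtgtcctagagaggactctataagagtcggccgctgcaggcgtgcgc
Id4: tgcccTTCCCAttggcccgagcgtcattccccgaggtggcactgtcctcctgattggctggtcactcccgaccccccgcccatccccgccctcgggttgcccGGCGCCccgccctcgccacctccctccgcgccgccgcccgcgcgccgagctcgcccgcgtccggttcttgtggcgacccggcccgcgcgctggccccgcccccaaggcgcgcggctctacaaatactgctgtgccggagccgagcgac
The Id4 window held 1 match to TGGGAA, beginning 245 bases before the start, and 1 to GGCGCC, 148 bases before it. The Id2 window held 1 GGCGCC, 231 bases before the start, and the Id3 window held neither. The window of Bmpr1a, which edgeR's test with all libraries called in no genotype, held both motifs as Id4 did, with TGGGAA 217 and GGCGCC 198 bases before the start. Both strands were searched. Of 32851 mouse promoter windows of the same length, 21.6% held TGGGAA and 9.59% held GGCGCC. The longer form GTGGGAA, which holds TGGGAA within it, occurred in 5.42% of windows and in none of the windows of these genes. Of the 10 genes, 7 had a window in the table, and Id1, Bmp2 and Bmp7 did not. A match of this kind describes the letters and does not show binding. GC content was 75.6% in the Id4 window and 62.8% in each of the windows of Id2 and Id3.

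By edgeR's test, of the 9 genes tested, Id4 and Bmp2 fell in Notch1-/-, in Notch1-/-Notch2-/- and in Rbpj-/- tumours, and none rose. In Notch1-/- limma voom called 6 of them (Id3, Id4, Bmp2, Bmp4, Bmp7 and Bmpr1a), in a fit that called 6907 of all 15617 genes. None of the 9 passed edgeR's test in Notch2-/-, where 1 (Bmp4) had an unadjusted p under 0.05, none passed DESeq2's Wald test and 1 (Bmp4 again) passed limma voom. A gene was called where the Benjamini-Hochberg adjusted p of edgeR's quasi-likelihood test, adjusted over all 15617 genes, was under 0.05. By that rule 26.7% of all genes were called in Notch1-/- against control, 37.1% in Notch1-/-Notch2-/-, 15.2% in Rbpj-/- and 0.295% in Notch2-/-, so the 2 of 9 genes are a share below or near the background in Notch1-/- and Notch1-/-Notch2-/- and near it in Rbpj-/-. The median log2 fold change of the 9 genes was -0.16 (Notch1-/-), -0.07 (Notch2-/-), -0.01 (Notch1-/-Notch2-/-) and -0.31 (Rbpj-/-), against 0.03, 0.01, 0.01 and 0.07 over all genes.

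**Figure D1:**
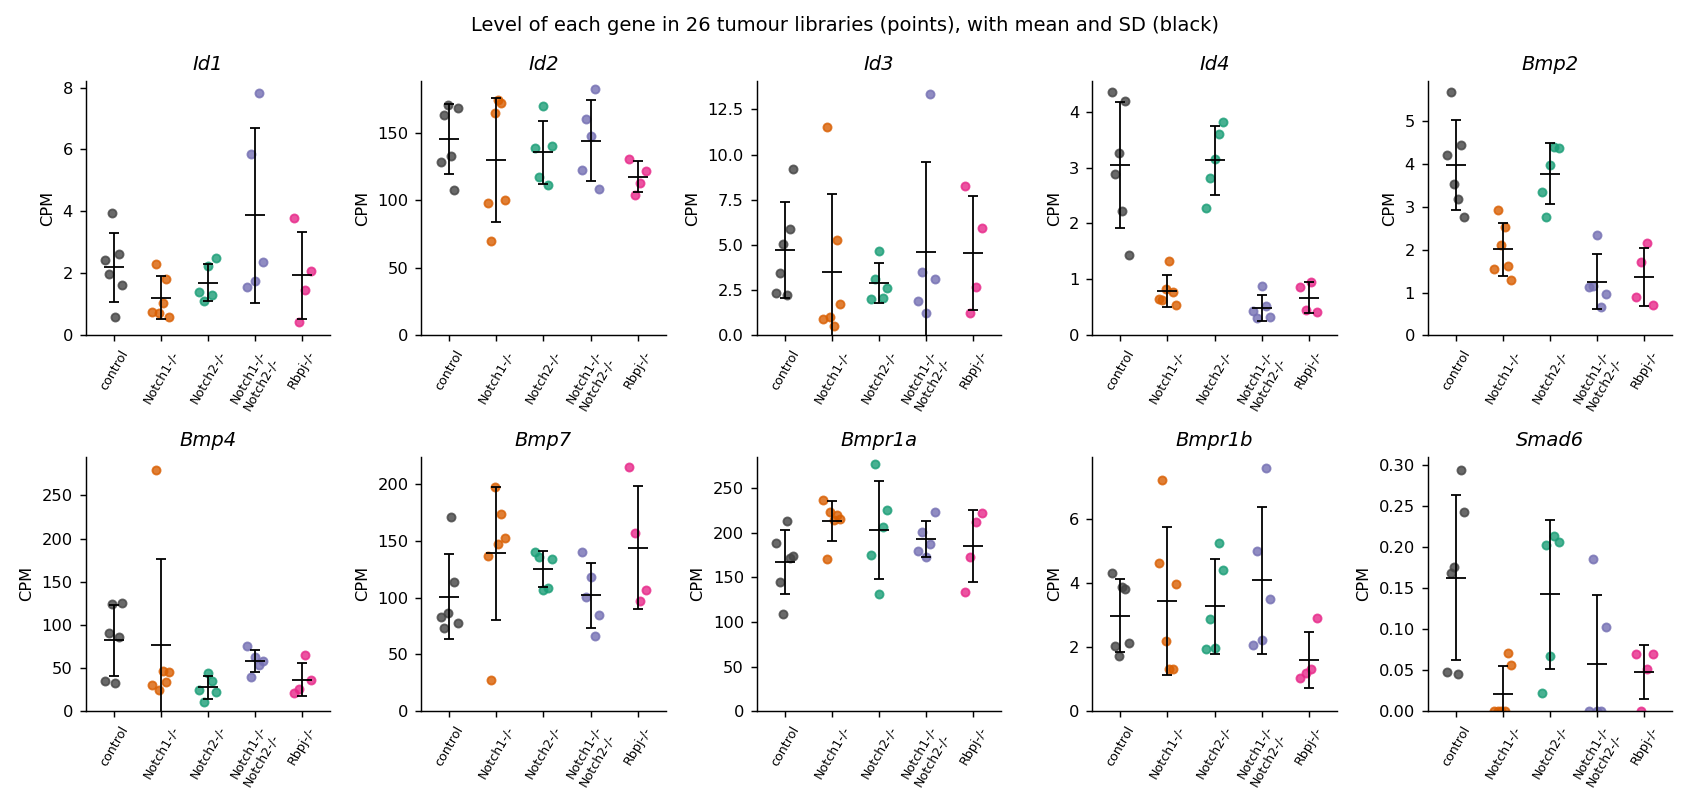
Level of each of the 10 genes in CPM (vertical axis, linear from 0) in every library (points), by genotype, with mean and SD in black; SD bars that would pass below 0 end at the axis. Id4 and Bmp2 are low in the Notch1-/-, Notch1-/-Notch2-/- and Rbpj-/- libraries and at the control level in Notch2-/-, while 1 Notch1-/- library stands apart for Bmp4 (279.8 CPM) and Bmp7 (27.7 CPM).

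Per gene length, Id2 was by far the most abundant Id transcript. Mean control levels in RPKM, reads per kilobase of gene and library size, were 114 for Id2, 4.94 for Id3, 2.36 for Id1 and 1.84 for Id4. Id2 made up 78.7 to 98.2% of the summed Id RPKM over the 26 libraries. Among the ligands, Bmp4 (39.9 RPKM) and Bmp7 (27.5 RPKM) were expressed well above Bmp2 (1.11 RPKM) in control. The type I receptor gene Bmpr1a (30.5 RPKM) likewise exceeded its relative Bmpr1b (0.511 RPKM), and Smad6 was the lowest of the 10 at 0.0547 RPKM.

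Among the ligand genes Bmp2, Bmp4 and Bmp7, only Bmp2 had a called difference from control by edgeR's test with all libraries. Bmp2 (Entrez 12156, chr2:133552159-133562896 on GRCm38.p6) encodes a secreted BMP that binds BMPR1A and BMPR1B. In control it ran from 2.76 to 5.69 CPM with a median of 3.88. In Notch1-/- it ran from 1.31 to 2.93 CPM with a median of 1.87. The highest Notch1-/- library, replicate 2, lay above the lowest control library, so these groups overlapped narrowly.

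In Notch1-/-Notch2-/- the Bmp2 values were 1.14, 1.17, 2.36, 0.655 and 0.974 CPM, and in Rbpj-/- they were 0.889, 1.71, 2.16 and 0.719 CPM. All 9 of these libraries were below every control library. The Notch2-/- values, 3.34, 2.76, 3.98, 4.40 and 4.39 CPM, lay within the control range. Bmp2 fell by 0.98 ± 0.30 (log2 fold change and SE, adjusted p = 0.0189) in Notch1-/-, by 1.66 ± 0.32 (adjusted p = 5.26e-04) in Notch1-/-Notch2-/- and by 1.54 ± 0.35 (adjusted p = 0.00767) in Rbpj-/-. Its difference in Notch2-/- was -0.07 ± 0.31 (adjusted p = 0.924). Without control replicate 2, the highest control library for this gene, the Notch1-/- difference was -0.85 with an adjusted p of 0.0533, which misses the threshold. The other 2 calls held with each of the 26 libraries left out in turn.

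Bmp4 (Entrez 12159, chr14:46383525-46390669) encodes a BMP that drives astrocyte formation from neural precursors and is also made by newly forming oligodendrocytes. It varied widely inside genotypes. Control libraries ran from 32.0 to 125 CPM with a median of 88.0, and Notch1-/- libraries from 24.6 to 279.8 CPM with a median of 39.5. The 279.8 CPM of Notch1-/- replicate 2 stood far above the next highest of its group, 46.0 CPM.

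Bmp4 stood at 24.9, 10.9, 44.7, 35.3 and 21.7 CPM in Notch2-/-, at 74.9, 40.0, 63.2, 53.9 and 58.1 CPM in Notch1-/-Notch2-/-, and at 20.7, 25.6, 64.5 and 35.7 CPM in Rbpj-/-. Each of these groups overlapped control, and no difference was called: -1.58 ± 0.55 (log2, adjusted p = 0.226) in Notch2-/-, -1.16 ± 0.59 (adjusted p = 0.177) in Rbpj-/-, -0.50 ± 0.53 (adjusted p = 0.483) in Notch1-/-Notch2-/- and -0.10 ± 0.51 (adjusted p = 0.901) in Notch1-/-. These values depended on 1 library, which also enters the estimate of the spread that all genotypes share. Without Notch1-/- replicate 2, Bmp4 was lower in Notch1-/- (-1.18, adjusted p = 0.0199), in Notch2-/- (-1.59, adjusted p = 0.0418) and in Rbpj-/- (-1.16, adjusted p = 0.0449), with -0.48 (adjusted p = 0.297) in Notch1-/-Notch2-/-. With all libraries, limma voom called Bmp4 lower in Notch1-/- (-0.87, adjusted p = 0.0397) and in Notch2-/- (-1.64, adjusted p = 0.0127).

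Bmp7 (Entrez 12162, chr2:172868012-172940321), a BMP that signals mainly through ACVR1 and BMPR1 receptors, had no called difference by edgeR's test with all libraries. It ran from 73.0 to 171 CPM in control and from 27.7 to 197 CPM in Notch1-/-, where replicate 2 was the lowest and the other 5 were between 137 and 197 CPM. Notch2-/- libraries held 107 to 140.0 CPM, Notch1-/-Notch2-/- libraries 66.4 to 141 CPM and Rbpj-/- libraries 97.3 to 215 CPM. Every group overlapped control. The log2 differences lay between 0.02 ± 0.32 (adjusted p = 0.973) in Notch1-/-Notch2-/- and 0.51 ± 0.34 (adjusted p = 0.310) in Rbpj-/-. Without Notch1-/- replicate 2, Bmp7 was higher in Notch1-/- than in control by 0.70 (adjusted p = 0.0218), against 0.46 ± 0.31 (adjusted p = 0.254) with it. Limma voom called Bmp7 higher in Notch1-/- with all libraries (0.64, adjusted p = 0.0277).

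**Figure D2:**
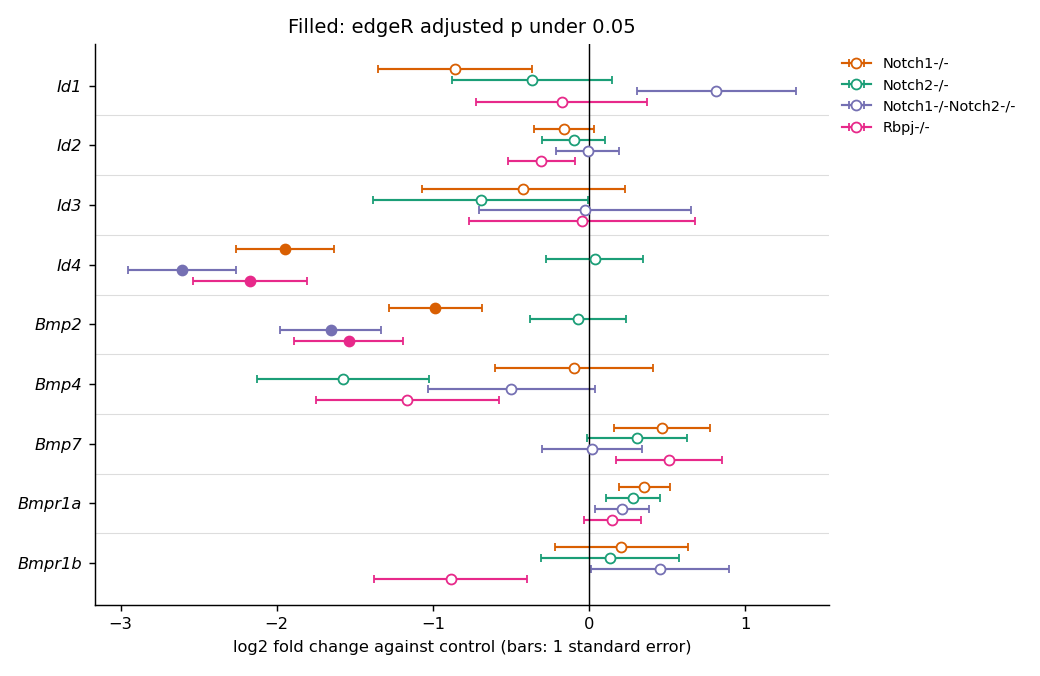
Log2 fold change of the 9 tested genes against control (horizontal axis; points with bars of 1 SE), for each of the 4 genotypes in its own colour; filled points passed edgeR's test. Filled points belong to Id4 and Bmp2 in 3 genotypes, all left of 0, from -0.98 for Bmp2 in Notch1-/- to -2.61 for Id4 in Notch1-/-Notch2-/-.

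Neither type I receptor gene was called in any genotype by edgeR's test with all libraries. Bmpr1a (Entrez 12166, chr14:34411061-34503336), the widely expressed type I receptor, ran from 109 to 214 CPM in control, with a median of 173. Its range was 170.5 to 237 CPM in Notch1-/- and 131 to 277 CPM in Notch2-/-. Notch1-/-Notch2-/- libraries held 173 to 224 CPM, and Rbpj-/- libraries 133 to 222 CPM. All groups overlapped control, and the largest of the 4 differences was 0.35 ± 0.16 (log2, adjusted p = 0.106) in Notch1-/-, with a 95% interval from 0.02 to 0.69. Its unadjusted edgeR p was 0.0409, and limma voom called Bmpr1a higher there (0.39, adjusted p = 0.0154). Of the 26 edgeR fits with 1 library left out, 1 called it.

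Bmpr1b (Entrez 12167, chr3:141837135-142169585), the type I receptor linked to astrocyte and late progenitor stages, was low. It ran from 1.71 to 4.29 CPM in control and from 1.31 to 7.22 CPM in Notch1-/-. In Rbpj-/- it stood at 1.03, 1.18, 1.31 and 2.90 CPM, so that 3 of 4 libraries were below every control library. The difference there was -0.89 ± 0.49 (log2, adjusted p = 0.219), and in the other genotypes it was between 0.13 ± 0.44 and 0.45 ± 0.44.

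Smad6 (Entrez 17130, chr9:63953076-64022085), an inhibitory SMAD that BMP signals induce and that blocks type I receptors, was near the limit of detection. Control libraries held 2, 8, 7, 2, 14 and 9 counts, and Notch2-/- libraries 1, 8, 3, 8 and 10. Notch1-/- libraries held 0 counts in 4 of 6, with 3 and 2 in the remaining pair. Notch1-/-Notch2-/- libraries held 0, 7, 0, 0 and 4, and Rbpj-/- libraries 3, 0, 2 and 3. The groups overlapped. In the fit with no filter on low counts, Smad6 was lower in Notch1-/- than in control by a log2 difference of -2.72 ± 0.96 (edgeR adjusted p = 0.0478, over 20409 genes). The same fit gave -1.47 ± 0.91 (adjusted p = 0.234) in Notch1-/-Notch2-/-, -1.66 ± 1.00 (adjusted p = 0.305) in Rbpj-/- and -0.21 ± 0.84 (adjusted p = 0.972) in Notch2-/-. With so few counts the size of these differences is uncertain.

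Id4 changed most. Id4 (Entrez 15904, chr13:48261116-48266028) encodes the Id protein tied to neural stem and astrocyte lineages and to the timing of oligodendrocyte formation. Control libraries held 4.34, 2.89, 3.26, 2.22, 4.18 and 1.43 CPM, from 53 to 199 counts each. Notch1-/- libraries held 0.652, 0.629, 0.822, 1.32, 0.785 and 0.539 CPM, from 19 to 45 counts. The highest Notch1-/- library was below the lowest control library, so the groups did not overlap.

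In Notch1-/-Notch2-/- the Id4 values were 0.432, 0.318, 0.886, 0.519 and 0.333 CPM, and in Rbpj-/- they were 0.866, 0.460, 0.952 and 0.418 CPM. These 9 libraries were below every control library as well, at 12 to 38 counts. In Notch2-/- Id4 stood at 2.27, 2.81, 3.16, 3.60 and 3.81 CPM, all inside the control range. Mean levels were 3.05 ± 1.13 (SD, n = 6) in control, 3.13 ± 0.617 (n = 5) in Notch2-/-, 0.791 ± 0.280 (n = 6) in Notch1-/-, 0.674 ± 0.274 (n = 4) in Rbpj-/- and 0.498 ± 0.232 CPM (n = 5) in Notch1-/-Notch2-/-. The first 2 of this order did not differ beyond their spread, nor did neighbours among the last 3.

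Id4 fell by 1.95 ± 0.31 (log2, edgeR adjusted p = 2.76e-04) in Notch1-/-, by 2.61 ± 0.34 (adjusted p = 1.55e-05) in Notch1-/-Notch2-/- and by 2.17 ± 0.37 (adjusted p = 0.00135) in Rbpj-/-. As ratios of mean CPM to control these were 0.259, 0.163 and 0.221. The difference in Notch2-/- was 0.04 ± 0.31 (adjusted p = 0.969), with a 95% interval from -0.61 to 0.68. All 3 calls held with each of the 26 libraries left out in turn, and without the 3 libraries of mixed sex. Within the summed Id RPKM, the Id4 share was 0.595 to 2.62% in control and 0.140 to 0.445% in Notch1-/-Notch2-/-.

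Id2 (Entrez 15902, chr12:25093799-25096092), an Id protein that in oligodendrocyte precursors holds back differentiation, kept close to its control level. It ran from 108 to 170.4 CPM in control, with a median of 148, and from 70.2 to 174 CPM in Notch1-/-. It stood at 139, 117, 170.1, 111 and 141 CPM in Notch2-/-, at 122, 161, 148, 183 and 108 CPM in Notch1-/-Notch2-/- and at 131, 104, 113 and 122 CPM in Rbpj-/-. All groups overlapped control. The differences were between -0.31 ± 0.22 (log2, adjusted p = 0.341) in Rbpj-/- and -0.01 ± 0.20 (adjusted p = 0.974) in Notch1-/-Notch2-/-. The 95% intervals bound them: in Notch1-/-Notch2-/- from -0.42 to 0.40, and in Rbpj-/- from -0.75 to 0.14.

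Id1 (Entrez 15901, chr2:152736251-152737410) and Id3 (Entrez 15903, chr4:136143822-136145392) are the Id genes most directly switched on by BMP signals, and both are also strongly expressed in blood vessel cells. Id1 ran from 0.594 to 3.94 CPM in control and from 0.596 to 2.30 CPM in Notch1-/-. Id1 stood at 1.40, 1.11, 2.22, 1.31 and 2.48 CPM in Notch2-/-, at 1.55, 5.85, 1.75, 7.84 and 2.38 CPM in Notch1-/-Notch2-/-, and at 3.79, 0.427, 1.47 and 2.07 CPM in Rbpj-/-. Replicates 2 and 4 of Notch1-/-Notch2-/- were the only libraries of the 26 above 4 CPM, and every group overlapped control. The differences were -0.86 ± 0.49 (log2, adjusted p = 0.190) in Notch1-/- and 0.81 ± 0.51 (adjusted p = 0.210) in Notch1-/-Notch2-/-, with intervals from -1.88 to 0.16 and from -0.23 to 1.86.

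Id3 was the most variable of the Id genes. It ran from 2.24 to 9.21 CPM in control and from 0.528 to 11.5 CPM in Notch1-/-. Id3 stood at 1.91, 3.52, 1.26, 13.4 and 3.10 CPM in Notch1-/-Notch2-/-, at 8.26, 1.25, 2.70 and 5.96 CPM in Rbpj-/- and between 2.03 and 4.67 CPM in Notch2-/-. Every group overlapped control, and the differences by edgeR lay between -0.70 ± 0.69 (log2, adjusted p = 0.627) in Notch2-/- and -0.02 ± 0.68 (adjusted p = 0.982) in Notch1-/-Notch2-/-. In Notch1-/- edgeR gave -0.42 ± 0.65 (adjusted p = 0.646), while limma voom called Id3 lower (-1.61, adjusted p = 0.0201). The 95% interval in Notch1-/-Notch2-/- ran from -1.42 to 1.38.

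Between the mutant genotypes, Id4 was lower in Notch1-/- than in Notch2-/- by a log2 difference of -1.98 ± 0.32 (edgeR adjusted p = 8.30e-04), in Notch1-/-Notch2-/- than in Notch2-/- by -2.64 ± 0.35 (adjusted p = 4.39e-05) and in Rbpj-/- than in Notch2-/- by -2.21 ± 0.38 (adjusted p = 0.00275). Bmp2 was lower than in Notch2-/- by -1.58 ± 0.33 (adjusted p = 0.00279) in Notch1-/-Notch2-/- and by -1.46 ± 0.36 (adjusted p = 0.0343) in Rbpj-/-, while Notch1-/- gave -0.91 ± 0.31 (adjusted p = 0.107). This last difference was called by DESeq2's Wald test (-0.91, adjusted p = 0.0439) and by limma voom (-1.14, adjusted p = 0.00297). In the same pair DESeq2 called Bmp4 (1.49, adjusted p = 0.0499), and voom did not. Voom called Bmp4 in Notch1-/-Notch2-/- against Notch2-/- (1.34, adjusted p = 0.00716), and DESeq2 did not. The Rbpj-/- call of Bmp2 against Notch2-/- was lost without any 1 of Notch2-/- replicates 1, 3, 4 and 5 or Rbpj-/- replicates 1, 2 and 4 (adjusted p from 0.0513 to 0.155), and without the 3 libraries of mixed sex (adjusted p = 0.165). Of all genes, 3.09% were called in Notch1-/- against Notch2-/-, 17.4% in Notch1-/-Notch2-/- against Notch2-/- and 1.70% in Rbpj-/- against Notch2-/-.

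No gene of the 9 was called between Notch1-/-Notch2-/- and Notch1-/- (0.640% of all genes), between Rbpj-/- and Notch1-/-Notch2-/- (0.794%) or between Rbpj-/- and Notch1-/- (0.263%). At an unadjusted edgeR p under 0.05 the first held 2 genes (Id1 and Bmp2) and the other two 1 each (Bmpr1b). DESeq2's Wald test called 1 gene (Id1) in the first and none in the others, and limma voom called none. The difference of Notch1-/-Notch2-/- from Notch1-/- was -0.66 ± 0.33 (log2, adjusted p = 0.445) for Id4 and 1.67 ± 0.52 (adjusted p = 0.182) for Id1. The interaction, which asks whether loss of both receptors departs from the sum of the single losses, called 0.0768% of all genes and none of the 9, with 1 gene (Id1) at an unadjusted p under 0.05, none by DESeq2 and 1 (Bmp4) by voom. It was 2.04 ± 0.73 (log2, adjusted p = 0.279) for Id1, 1.18 ± 0.75 (adjusted p = 0.507) for Bmp4 and -0.70 ± 0.45 (adjusted p = 0.512) for Id4. Without Notch1-/- replicate 2 the Bmp4 interaction was 2.28 (adjusted p = 0.0324), and Bmp4 was higher in Notch1-/-Notch2-/- than in Notch2-/- by 1.11 (adjusted p = 0.0434).

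Markers of some other cell types differed between the same genotypes. Summed mural and fibroblast markers (14 genes, 631 to 1330 CPM in control) overlapped control in every genotype. So did neuronal markers (12 genes, 221 to 433 CPM in control). Of the 14 mural and fibroblast markers, 5, 3 and 2 fell in Notch1-/-, Notch1-/-Notch2-/- and Rbpj-/-. Of the 12 neuronal markers, 1 rose in Notch1-/-, 1 rose and 2 fell in Notch1-/-Notch2-/-, and 0 were called in Rbpj-/-. Over all genes the shares called were 26.7% in Notch1-/-, 37.1% in Notch1-/-Notch2-/- and 15.2% in Rbpj-/-. The neuronal calls were below these shares. The mural and fibroblast calls were near or above the share in Notch1-/-, below it in Notch1-/-Notch2-/- and near it in Rbpj-/-. Astrocyte markers (16 genes) summed to 1906 to 2859 CPM in control and 2154 to 2950 CPM in Notch2-/-, but to 1134 to 1600 CPM in Notch1-/-, 774 to 1418 CPM in Notch1-/-Notch2-/- and 1272 to 1674 CPM in Rbpj-/-. Of the 16, 9, 10 and 6 fell in Notch1-/-, Notch1-/-Notch2-/- and Rbpj-/-, 1 rose in Notch1-/-, and none was called in Notch2-/-. Endothelial markers (15 genes) summed to 181 to 429 CPM in control, 196 to 366 in Notch2-/-, 59.8 to 126 in Notch1-/-, 95.7 to 129 in Notch1-/-Notch2-/- and 104 to 145 CPM in Rbpj-/-, with 12, 13 and 10 of 15 fallen in the last 3, 1 risen in Notch1-/-Notch2-/- and none called in Notch2-/-.

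Microglia and macrophage markers (20 genes) summed to 465 to 1756 CPM in control and 381 to 826 in Notch2-/-, against 118 to 331 in Notch1-/-, 90.2 to 215 in Notch1-/-Notch2-/- and 191 to 315 CPM in Rbpj-/-, with 18, 17 and 16 of 20 fallen in those last 3. Mature oligodendrocyte markers (13 genes) summed to 10278 to 26822 CPM in control, 2396 to 6506 in Notch1-/-Notch2-/-, 3808 to 9888 in Rbpj-/- and 2730 to 22721 CPM in Notch2-/-. In Notch1-/- they summed to 21360 CPM in replicate 2 and 2472 to 5917 CPM in the other 5 libraries. Of these 13 markers, 10, 12 and 10 fell in Notch1-/-, Notch1-/-Notch2-/- and Rbpj-/-, and none was called in Notch2-/-. No marker of the astrocyte, endothelial, microglia and macrophage or mature oligodendrocyte lists was at 0 in any library. The part of these cell types in the lower Id4 and Bmp2 was not tested. Endothelial sums in Notch1-/-, Notch1-/-Notch2-/- and Rbpj-/- did not overlap control, so a fit with that level as a covariate cannot separate it from genotype. With the mean log2 endothelial level as a covariate, Id4 differed by -1.34 (adjusted p = 0.769) in Notch1-/-, -2.06 (adjusted p = 0.0709) in Notch1-/-Notch2-/- and -1.76 (adjusted p = 0.187) in Rbpj-/-, and Bmp2 by -1.36 (adjusted p = 0.769), -1.99 (adjusted p = 0.0738) and -1.79 (adjusted p = 0.180). No member was called against control in that fit.

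Inside genotypes, some of these genes moved with marker levels from library to library. Deviations of log2 CPM from the genotype mean were correlated over the 26 libraries, with p-values from 100000 permutations within genotype, adjusted over the 63 relations of 9 genes with 7 marker lists. Bmp4 moved with the mature oligodendrocyte markers (Pearson r = 0.76, permutation p = 9e-05; Spearman rho = 0.69, permutation p = 0.00037; adjusted p = 0.00283), and r was 0.64 without the 2 libraries farthest out on the marker axis. Bmp2 did so too (r = 0.64, permutation p = 3e-05; rho = 0.71, permutation p = 0.0001; adjusted p = 0.00189), again with r = 0.64 without those 2 libraries. Bmp2 also moved with neuronal markers (r = 0.66, permutation p = 0.00297; rho = 0.58, permutation p = 0.0088; adjusted p = 0.0468; r = 0.52 without 2 libraries).

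Id4 moved with the astrocyte markers (r = 0.59, permutation p = 0.00248; rho = 0.53, permutation p = 0.00576; adjusted p = 0.0468; r = 0.58 without 2 libraries) and not detectably with the endothelial ones (r = 0.27, permutation p = 0.222; rho = 0.22, permutation p = 0.304; adjusted p = 0.518; r = 0.22 without 2 libraries). Among the 36 pairs of the 9 genes, Id1 moved with Id3 (r = 0.72, permutation p = 0.00024; rho = 0.72, permutation p = 0.00043; adjusted p over the 36 pairs = 0.00864; r = 0.65 without 2 libraries). Bmp4 moved against Bmp7 (r = -0.77, permutation p = 0.00234; rho = -0.58, permutation p = 0.006; adjusted p = 0.0421; r = -0.51 without 2 libraries), and Notch1-/- replicate 2 held the highest Bmp4 and the lowest Bmp7 of the 26 libraries.

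**Figure D3:**
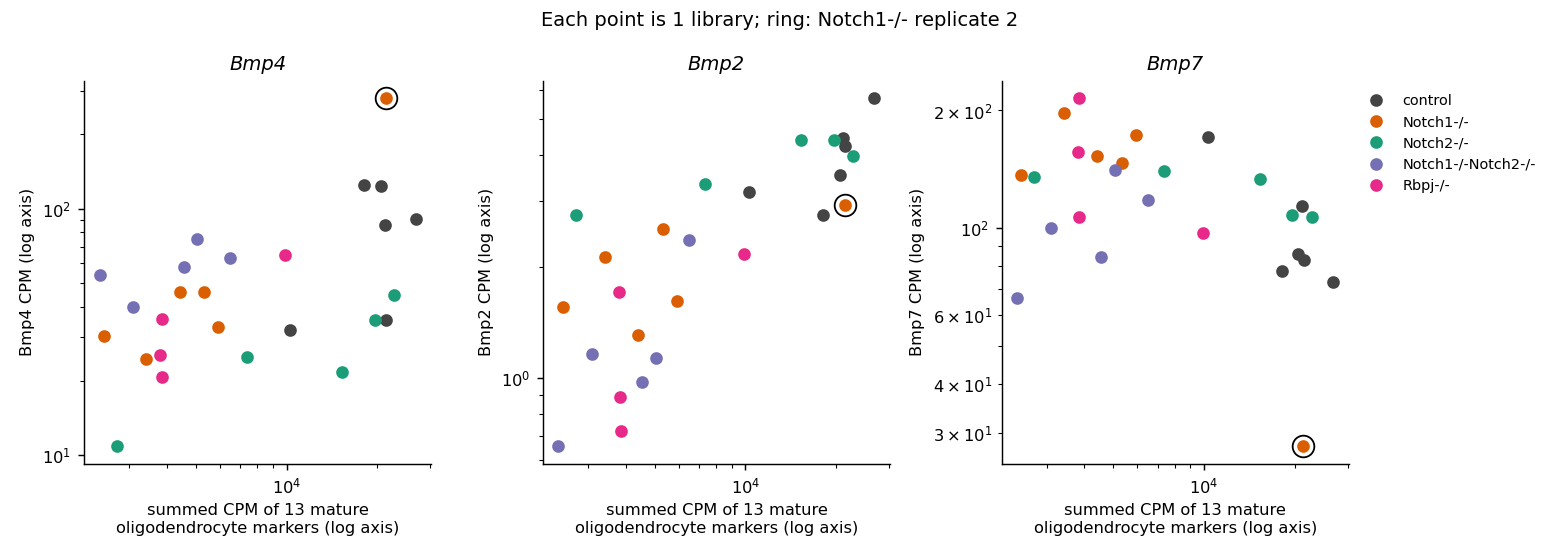
CPM of Bmp4, Bmp2 and Bmp7 (vertical log axes, 1 panel each) against the summed CPM of 13 mature oligodendrocyte markers (horizontal log axis) in the 26 libraries, coloured by genotype, with Notch1-/- replicate 2 ringed. The ringed library has 21360 CPM of these markers, 279.8 CPM of Bmp4 and 27.7 CPM of Bmp7.

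The genes most like each member, by r of the same deviations over 26 libraries among 12010 genes, are given as a description. They were Mlc1 (0.70), Paqr7 (0.68) and Sort1 (0.67) for Id4, where Mlc1 encodes an astrocyte membrane protein. For Bmp4 they were Slc31a2 (0.94), Pld2 (0.92) and Ssh3 (0.92), and for Bmp2 they were Retreg1 (0.87), Grm3 (0.85) and Sowaha (0.85). For Bmp7 they were Spry2 (0.94), an inhibitor of receptor tyrosine kinase signalling, Ror2 (0.93) and Sorcs2 (0.93). Bmpr1a was most like Ipo7 (0.97), Papola (0.96) and Pds5b (0.96), and Bmpr1b most like Bmp2k (0.89), Slc26a2 (0.88) and Kif16b (0.87). For the other Id genes they were Plin3 (0.81), Rwdd2b (0.81) and Zkscan14 (0.80) for Id1, Psmc3ip (0.81), Stmn1 (0.81) and Cep19 (0.81) for Id2, and Eya2 (0.84), Agtrap (0.82) and Anxa4 (0.82) for Id3.

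The rest of the BMP pathway was read from a list of 51 further genes, of which 41 were tested. In Notch1-/- 4 rose and 7 fell, in Notch1-/-Notch2-/- 5 rose and 8 fell, in Rbpj-/- 3 rose and 3 fell, and in Notch2-/- none was called. Median log2 fold changes of the 41 were -0.14, -0.42, -0.21 and 0.04 in this order. The calls were 11 of 41 in Notch1-/- and 13 of 41 in Notch1-/-Notch2-/-, the first a share near the background of 26.7% of all genes and the second below that of 37.1%. Rbpj-/- calls were a share near its background of 15.2%, and the background in Notch2-/- was 0.295%. The interaction called none of the 41. At an unadjusted edgeR p under 0.05, 3 of the 41 differed in Notch2-/- (Smad4, Smad5 and Smad9) and 2 in the interaction (Sostdc1 and Atoh8).

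The SMADs that carry the signal rose in part. Smad5 rose from a mean of 180 ± 44.0 CPM (SD, n = 6) in control to 264 ± 39.1 (n = 6) in Notch1-/- (log2 0.55 ± 0.15, adjusted p = 0.0107), 297 ± 21.2 (n = 5) in Notch1-/-Notch2-/- (0.72 ± 0.16, adjusted p = 0.00129) and 255 ± 15.8 CPM (n = 4) in Rbpj-/- (0.51 ± 0.17, adjusted p = 0.0420). In Notch2-/- its mean was 260 ± 58.2 CPM (n = 5), a log2 difference of 0.53 ± 0.16 that was not called (adjusted p = 0.160). Smad5 libraries did not overlap control in Notch1-/-Notch2-/- and Rbpj-/- and did in Notch1-/-. Smad9 rose from 4.83 ± 1.27 CPM (n = 6) to 8.44 ± 1.23 (n = 6) in Notch1-/- (0.80 ± 0.18, adjusted p = 0.00350), 8.91 ± 1.78 (n = 5) in Notch1-/-Notch2-/- (0.88 ± 0.19, adjusted p = 0.00115) and 7.86 ± 1.71 CPM (n = 4) in Rbpj-/- (0.70 ± 0.20, adjusted p = 0.0225). The Notch1-/- and Notch1-/-Notch2-/- calls of both held with each of the 26 libraries left out in turn. The Rbpj-/- calls were lost without control replicate 2 (adjusted p = 0.0888 for Smad5 and 0.0560 for Smad9), without Rbpj-/- replicate 2 (0.105 and 0.1001), without the 3 libraries of mixed sex (0.0701 and 0.0602), and for Smad5 also without control replicates 3, 5 or 6 or Rbpj-/- replicates 1 or 4 (0.0587 to 0.0934), while Smad9 without control replicate 6 gave 0.0503. With only the compared libraries they stood at 0.116 and 0.105, and of the alternatives that did not leave out a single library 2 of 10 kept the Rbpj-/- call of Smad5 and 4 of 9 that of Smad9. With the endothelial covariate neither gene was called in any genotype, at log2 differences of 0.56 to 0.79 for Smad5 and 0.76 to 0.95 for Smad9. Smad4 rose in Notch1-/-, by log2 0.24 to 0.34 with 1 library left out (called in 23 of 26 fits). It also rose in Rbpj-/-, by 0.30 to 0.40 (called in 20 of 26). Of the alternatives that did not leave out a single library, 8 of 10 kept the Notch1-/- call of Smad4 and 3 of 10 the Rbpj-/- call.

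Smad7, the second inhibitory SMAD and a target of BMP and TGF-beta signals, fell from 24.8 ± 6.41 CPM (n = 6) in control to 13.2 ± 8.00 (n = 6) in Notch1-/- (log2 -0.91 ± 0.29, adjusted p = 0.0254), 12.4 ± 1.96 (n = 5) in Notch1-/-Notch2-/- (-0.99 ± 0.31, adjusted p = 0.0154) and 10.7 ± 2.44 CPM (n = 4) in Rbpj-/- (-1.22 ± 0.34, adjusted p = 0.0203). In the last 2 no library reached the control range, while 1 Notch1-/- library stood at 29.1 CPM. The Notch1-/- call was lost without control replicate 2 (adjusted p = 0.0648) or Notch1-/- replicates 1 (0.0629) or 3 (0.0619), and the Rbpj-/- call without Rbpj-/- replicates 1 (0.0636) or 4 (0.0594). With the endothelial covariate Smad7 differed by -0.69 (adjusted p = 0.791) in Notch1-/-, -0.80 (adjusted p = 0.448) in Notch1-/-Notch2-/- and -1.07 (adjusted p = 0.367) in Rbpj-/-. With the microglia and macrophage score in its place the values were -0.21 (adjusted p = 0.851), -0.18 (adjusted p = 0.872) and -0.61 (adjusted p = 0.601).

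Among 16 extracellular antagonists, 14 were tested, and Sostdc1, a secreted blocker of BMP and Wnt ligands, changed most. It fell from 3.69 ± 1.03 CPM (n = 6) in control to 1.82 ± 0.433 (n = 6) in Notch1-/- (log2 -1.01 ± 0.28, adjusted p = 0.0110), 0.717 ± 0.362 (n = 5) in Notch1-/-Notch2-/- (-2.35 ± 0.31, adjusted p = 1.55e-05) and 1.34 ± 0.352 CPM (n = 4) in Rbpj-/- (-1.46 ± 0.32, adjusted p = 0.00694), with 3.73 ± 0.870 CPM (n = 5) in Notch2-/-. None of the 15 libraries of the 3 genotypes that fell reached the control range, and all 3 calls held with each library left out. Sostdc1 was also lower in Notch1-/-Notch2-/- than in Notch1-/- (-1.34, adjusted p = 0.0423). Nbl1, a DAN-family antagonist, fell by 0.84 ± 0.22 (adjusted p = 0.00962) in Notch1-/- and by 1.46 ± 0.24 (adjusted p = 1.30e-04) in Notch1-/-Notch2-/-. Chrdl2 was the 1 antagonist called as risen, in Notch1-/-Notch2-/-. Its log2 difference ran from 0.85 to 1.92 with 1 library left out, and 21 of 26 such fits called it. Of the alternatives that did not leave out a single library, 3 of 9 kept the call. Noggin (Nog) and chordin (Chrd) were not called in any genotype.

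Among 12 receptors and co-receptors, 11 were tested, and those that fell most are known from blood vessels. Acvrl1, the endothelial type I receptor for BMP9 and BMP10, fell by 2.39 ± 0.42 (log2, adjusted p = 5.67e-04) in Notch1-/-, by 2.67 ± 0.45 (adjusted p = 1.62e-04) in Notch1-/-Notch2-/- and by 1.81 ± 0.47 (adjusted p = 0.0149) in Rbpj-/-. The last call was lost without Rbpj-/- replicate 2 (adjusted p = 0.0525). Its partner endoglin (Eng) fell by 2.14 ± 0.62 (adjusted p = 0.0157) in Notch1-/- and by 2.82 ± 0.69 (adjusted p = 0.00316) in Notch1-/-Notch2-/-. In Rbpj-/-, where the sums of endothelial markers given above were also below every control library, Eng was not called. With the endothelial covariate neither was called, Acvrl1 standing at 0.33 and Eng at 0.51 in Notch1-/-. That fit left 9 genes called of all in Notch1-/- and cannot separate the endothelial level from genotype. The part of vessel cells in these falls was not tested. Acvr2b, a type II receptor, rose by 0.89 ± 0.22 (adjusted p = 0.00605) and 0.96 ± 0.23 (adjusted p = 0.00253) in the same genotypes, with no overlap with control. The main type II receptor Bmpr2 and the type I receptor Acvr1 were not called.

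Of the ligands beside the 3 described, 5 were tested. Bmp6 fell in Notch1-/- by 2.71 ± 0.94 (log2, adjusted p = 0.0366), and Bmp3 fell in Notch1-/-Notch2-/- by 1.48 ± 0.54 (adjusted p = 0.0349). The Bmp6 call was lost without any 1 of control replicates 2, 3 and 6 or Notch1-/- replicates 1, 2, 3, 4 and 6 (adjusted p from 0.0516 to 0.0763) and without the 3 libraries of mixed sex (0.0880). The Bmp3 call was lost without control replicate 6 or Notch1-/-Notch2-/- replicates 1, 2, 4 or 5 (adjusted p from 0.0533 to 0.123) and without the 3 libraries of mixed sex (0.115). Both were under 2 CPM on average in control.

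The bHLH factors that Id proteins bind or oppose made a list of 10, with 8 tested. Tcf12, an E protein and partner of Olig2, rose by 0.52 ± 0.15 (log2, adjusted p = 0.0127) in Notch1-/-, 0.65 ± 0.15 (adjusted p = 0.00222) in Notch1-/-Notch2-/- and 0.49 ± 0.16 (adjusted p = 0.0415) in Rbpj-/-. The Rbpj-/- call of Tcf12 was lost without any 1 of control replicates 2, 3, 5 and 6 or Rbpj-/- replicates 2, 3 and 4 (adjusted p from 0.0656 to 0.146) and without the 3 libraries of mixed sex (0.0523). It held in 2 of the 10 alternatives that did not leave out a single library and was lost, among others, with DESeq2's size factors (0.0575), with no filter (0.0656) and with only the compared libraries (0.108). The Notch targets Hes5 and Hes1, repressors with a bHLH, were the largest falls of the list. Hes5 fell by 2.99 ± 0.39 (adjusted p = 5.85e-05) in Notch1-/-, 2.69 ± 0.41 (adjusted p = 6.91e-05) in Notch1-/-Notch2-/- and 1.64 ± 0.43 (adjusted p = 0.0148) in Rbpj-/-, with no overlap with control in any of the 3. Hes1 fell by 2.44 ± 0.42 (adjusted p = 1.69e-04) in Notch1-/-Notch2-/- and by 1.19 ± 0.37 (adjusted p = 0.0229) in Notch1-/-. The Notch1-/- call was lost without control replicate 1 (adjusted p = 0.0518) or Notch1-/- replicates 1 (0.0524) or 6 (0.0554). In Rbpj-/- Hes1 was not called. Tcf3 rose in Notch1-/-Notch2-/-, by log2 0.65 to 0.86 with 1 library left out (called in 26 of 26 fits). It also rose in Rbpj-/-, by 0.59 to 1.07 (called in 22 of 26). Of the alternatives that did not leave out a single library, 5 of 10 kept that Rbpj-/- call. Olig1 fell in Notch1-/-Notch2-/-, with values from -0.73 to -0.50 (called in 26 of 26). Olig2 and Tcf4 were not called in any genotype.

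**Figure D4:**
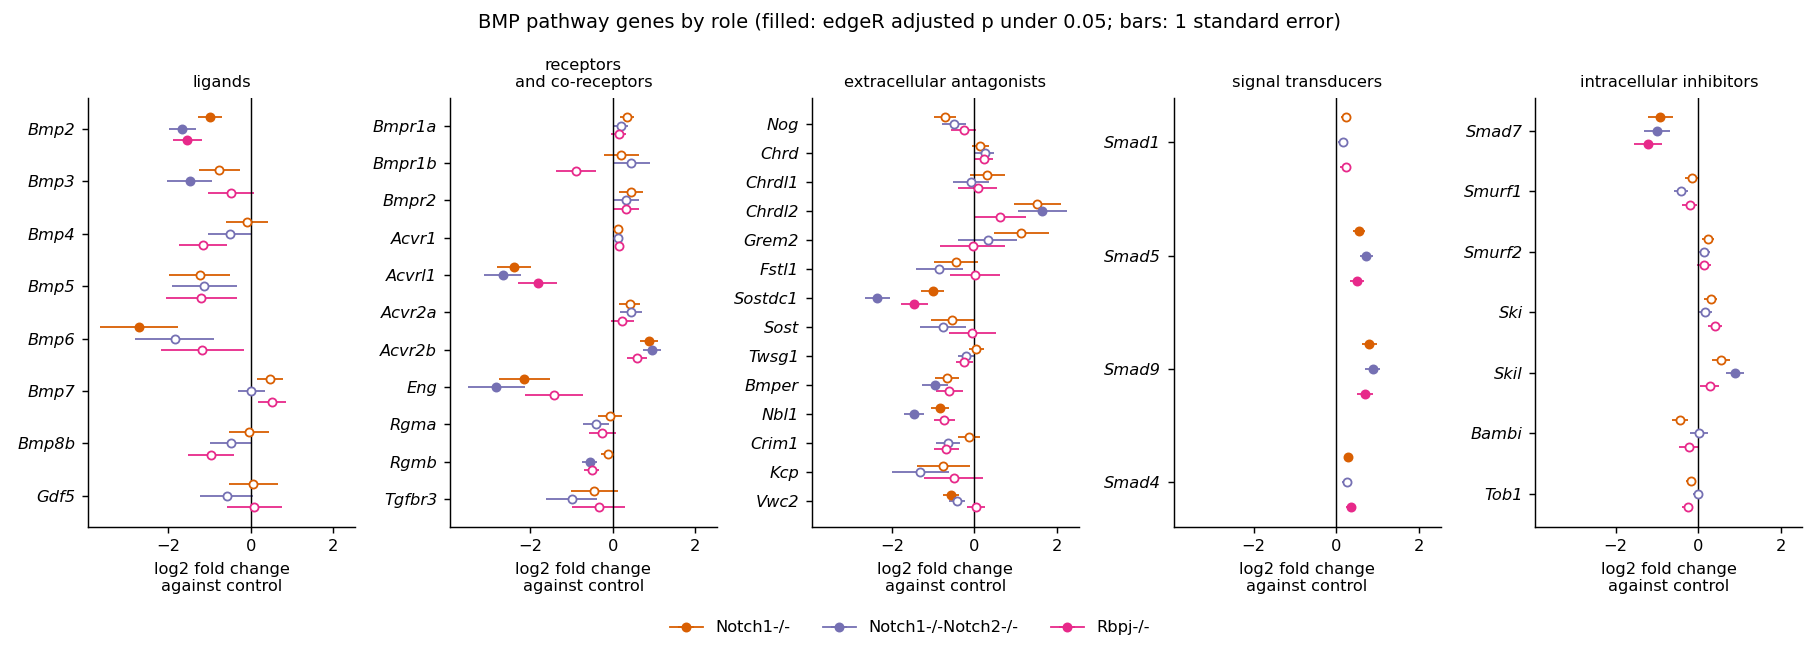
Log2 fold change against control (horizontal axes, bars of 1 SE) of the tested BMP pathway genes, 1 panel per role, for Notch1-/-, Notch1-/-Notch2-/- and Rbpj-/-; filled points passed edgeR's test. Signal transducers lie right of 0 for Smad5 and Smad9, while Bmp2, Acvrl1, Sostdc1 and Smad7 lie left of 0 in all 3 genotypes.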

How the data were processed

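RNA of sorted GFP-positive glioma cells from 26 libraries was made into TruSeq Stranded RNA LT libraries and sequenced on a NextSeq 500, per the labels' protocols. The deposited values are read counts per gene, made by the authors. The submitters' processing notes name STAR and mm10. STAR's version, the counter, its annotation and any strand option: not given in the sources used here. Overlapping genes are therefore uncertain. Each library's genotype and replicate number come from its labels. Gene names and positions come from a RefSeq table of GRCm38.p6: 24374 of 24454 identifiers matched, and the other 80 held 0.348% of counts. A deposited gene length served for RPKM.

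Genes passing filterByExpr (15617) were scaled by TMM and tested in 1 fit of all 26 libraries with genotype as the only term, by the quasi-likelihood test of edgeR 4.0.16 in R 4.3.3. Benjamini-Hochberg adjustment ran over all of them, and calls needed an adjusted p under 0.05. The common biological coefficient of variation was 0.368, and SEs were taken from the fold change and its F statistic. TMM-scaled totals served for CPM, with a prior count of 2 on the log2 scale. Intervals (95%) used the t distribution. The script was tested on simulated counts.

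The genes and lists were chosen with earlier results of these data known. Named genes were the 10 members, up to 4 passing genes per role list and comparison (or the 2 most expressed), and the 3 genes most like each member. The last came from genes whose log2 CPM averaged 1 or more, leaving out predicted genes, Xist, Tsix and Y-linked genes. Not all named genes are described. Alternatives were the size factors of DESeq2 1.42.0, no filter or 10 CPM in 4 libraries, DESeq2's Wald test, voom of limma 3.58.1, a block for replicate number, a fit of only the groups compared, endothelial or microglia scores as covariates, and libraries left out.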

Additional observations from a re-analysis of the deposited data

Results flagged for a closer look

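In 6 of 50 groups of CPM values (10 genes in 5 genotypes) 1 library's gap to its nearest neighbour was large for the group's range, where chance gives about 1 in 20. Notch1-/- replicate 2 gave 3 of them: Bmp4 at 279.8 CPM (next 46.0), Bmp7 at 27.7 CPM (next 137) and Bmpr1a at 170.5 CPM (next 214). The same library held 21360 CPM of mature oligodendrocyte markers against 2472 to 5917 CPM in the other 5 of its genotype, and their part in its Bmp4 level was not tested. Id3 stood at 13.4 CPM in Notch1-/-Notch2-/- replicate 4 (next 3.52). Id4 stood at 1.32 CPM in Notch1-/- replicate 4 (next 0.822), still below every control library. Bmpr1b stood at 2.90 CPM in Rbpj-/- replicate 4 (next 1.31).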

How the results depend on the processing

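Of 3509 values of the 9 genes over 36 alternatives, 3456 kept their call, and their direction where it was judged. A call was gained by 21 and lost by 24, and 8 turned sign without a call either way. Direction was not judged for 48 of the 99 differences, which lay within 1 SE of 0, so their turns of sign are not counted. Counts of members called were 2 in Notch1-/-, Notch1-/-Notch2-/- and Rbpj-/- against control, 0 in Notch2-/-, 5 over the 6 pairs of mutants and 0 for the interaction. At 10 CPM in 4 libraries, which leaves out Id4 and Bmp2, the first 3 and the pairs became 0. DESeq2's Wald test gave 8 over the pairs. Voom with weights gave 6 in Notch1-/- (Id3, Id4, Bmp2, Bmp4, Bmp7 and Bmpr1a), 1 in Notch2-/- and 1 for the interaction. The endothelial covariate gave 0 in Notch1-/-, Notch1-/-Notch2-/- and Rbpj-/- and 1 over the pairs, and left 9 genes called of all in Notch1-/- against 4174. The microglia covariate gave 0 in Notch1-/- and 1 each in Notch1-/-Notch2-/- and Rbpj-/-. In Notch1-/-, Notch1-/-Notch2-/- and Rbpj-/- the endothelial and the microglia sums did not overlap control, so these fits cannot separate either level from genotype. The cause was not tested. With no filter Smad6 was called as well in Notch1-/- (adjusted p = 0.0478). Leaving out 1 library gave 4 to 6 over the pairs, 0 to 1 for the interaction, and, against control, 2 to 3 for Rbpj-/-, 1 to 4 for Notch1-/- and 0 to 1 for Notch2-/-. The 1 in Notch1-/- came without control replicate 2, the highest values without Notch1-/- replicate 2, and the 4 over the pairs without 7 libraries named beside Bmp2.

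Among differences beyond 1 SE of 0, Id1 in Notch1-/- turned sign, at 0.71 with the endothelial and 0.85 with the microglia covariate. With the microglia covariate so did Bmp7 in Notch1-/- at -0.55, Id3 in Notch2-/- at 0.0115, and Bmp4 at 0.20, Bmp7 at -0.18 and Bmpr1b at 0.0857 in Rbpj-/-. Smaller differences turned as well: in Notch1-/- against control Bmp4 ran from -0.91 to 1.30 and Id3 from -1.61 to 1.23 over the alternatives that did not leave out a single library. With the endothelial covariate Acvrl1 stood at 0.33 in Notch1-/- and 0.19 in Rbpj-/-, and Eng at 0.51 in Notch1-/- and 0.041 in Notch1-/-Notch2-/-. With the microglia covariate Chrdl2 stood at -0.98 in Notch1-/-Notch2-/-. Bmp4 in Rbpj-/- against Notch1-/- ran from -1.49 (without Rbpj-/- replicate 3) to 0.0172 (without Notch1-/- replicate 2) with 1 library left out. Gene by gene over all 15617, counts of calls ran from 12 to 1790 in Notch2-/- (46 as reported), from 199 to 7364 in Notch1-/-Notch2-/- (5794), from 16 to 3747 in Rbpj-/- (2378), to 6907 in Notch1-/- and from 5 to 924 for the interaction (12).

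With the replicate number as a replicate block, members called were again 2, 0, 2 and 2 against control, 5 over the pairs and 0 for the interaction. Smad5 (adjusted p = 0.0607), Smad9 (0.0590) and Tcf12 (0.0658) in Rbpj-/- and Bmp3 (0.0803) in Notch1-/-Notch2-/- lost their calls with the block. Libraries of the same number did not deviate together: over 47 such pairs of libraries r ran from -0.427 to 0.749 with a median of -0.03, 14 were over 0.1, and 5 of 26 libraries correlated best with their own number. At 12 to 45 counts per library, Id4 in the 3 genotypes where it fell is measured coarsely, and Smad6, at 0 to 14 counts, more so.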
